A study of Arabidopsis thaliana with 4 samples.

Results

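Transcripts with a bright signal in exo70A1-2 seedlings that were also clearly brighter there than in wild-type Col-0 were described. A probe set, the group of array probes that measures a transcript, was taken when its signal was at least 400 on both exo70A1-2 arrays and its lower exo70A1-2 signal was at least 1.4 times its higher Col-0 signal, and when it carried a single gene name. Of 13513 probe sets of a single gene, 50 met this rule, and they stand for 49 genes, since AT2G30600 has 2 of them. The ATG8 autophagy genes and the lipid transfer protein-like genes AT1G62510 and AT5G48490 were set aside by name, which removed 3 probe sets that met the values. Another 88 unnamed probe sets and 2 that carry several genes also met the values and are not described.

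The study profiled Arabidopsis thaliana on 4 one-colour Affymetrix ATH1 arrays, 2 of wild-type Col-0 and 2 of exo70A1-2, a mutant of the same Col-0 strain. Whole seedlings were used at the age of 1 week, grown upright on plates with 1.6% agar at 22 °C in constant light after 3 days of cold in both genotypes. EXO70A1, the gene that is mutated, encodes a subunit of the exocyst, and its own level was not analysed here, so it does not check the genotype labels. The labels do not say what kind of lesion the exo70A1-2 allele carries, how many seedlings went into an array, or if replicate arrays hold RNA of separately grown seedlings, so the spread given below may be technical.

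The exocyst is a protein complex that docks secretory vesicles at the cell surface ahead of fusion, and these vesicles carry wall material, secreted enzymes and membrane proteins outward. Plant seedlings hold much of their messenger RNA in a limited number of strongly expressed genes, among them genes for photosynthesis, protein synthesis, wall proteins and protection from stress. On a one-colour array the signal of a probe set depends on its probes as well as on the amount of RNA, so differences are taken between arrays within a probe set, and a brighter probe set does not stand for a more abundant transcript.

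The arrays had been scaled by the authors to a common mean, and their median signals lay between 37.3 and 38.8. Across the 13648 probe sets bright enough to be tested, log2 signals correlated at 0.980 between the Col-0 arrays, 0.987 between the exo70A1-2 arrays and 0.932 to 0.955 between arrays of different genotype. The seedling label was checked against marker genes of green tissue and root. The rubisco activase gene RCA gave a signal between 4629 and 5572 on the 4 arrays and the root gene PYK10 one between 4356 and 4551. The root genes NAI2 and JAL33 were bright too, but EXPA7 and EXPA18, also root genes, were dim. EXPA7 read between 49.9 and 64.9 and EXPA18 between 49.3 and 68.4, so not every root marker was bright. Of the 7 markers tested, 2 of green tissue and 5 of root, 0 passed the limma test at an adjusted p under 0.05, with median log2 fold changes of -0.13 and 0.18. In RNA of whole seedlings, more cells of a type and more RNA per cell cannot be told apart.

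The 50 probe sets were chosen by their signals on these same 4 arrays, so their difference between the genotypes is described and not tested. All 50 passed the fit across the whole table (limma, adjusted p under 0.05), where 8.54% of all probe sets tested were called higher in exo70A1-2, and nothing is read from this count. Of the 658 single-gene probe sets with a signal of at least 400 on both exo70A1-2 arrays, the 50 were 7.60%, and the 658 had a median log2 fold change of -0.02. Without the signal limit, 5.93% of single-gene probe sets met the ratio. The mirrored rule, with a Col-0 signal of at least 400 and at least 1.4 times the exo70A1-2 signal, was met by 40 of 643.

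The ratio of the mean exo70A1-2 signal to the mean Col-0 signal ran from 1.49 to 3.54 over the 50 probe sets, with a median of 1.88, and it was at least 2 for 21 of them. Many were bright in both genotypes, since 21 had a signal of at least 400 on both Col-0 arrays as well, while 28 stayed under 400 on both. For 48 of the 50, the gap between the genotypes in linear signal was wider than the wider of the gaps between replicate arrays. The exceptions were AT4G01870 and the dimmer probe set of AT2G30600. Taken as ratios, the exceptions differ. AT4G01870 stays one, and AT2G32150, AT2G34510 and AT5G14120 join it. In these 3 the Col-0 arrays differed by 2.22, 2.02 and 1.62 times. The nearest arrays of the 2 genotypes differed by 1.62, 1.55 and 1.49 times. The rule itself asks for a gap between the genotypes, so nothing is read from the 48. The same holds for the remarks below on how close the replicates of single members lay.

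**Figure D1:**
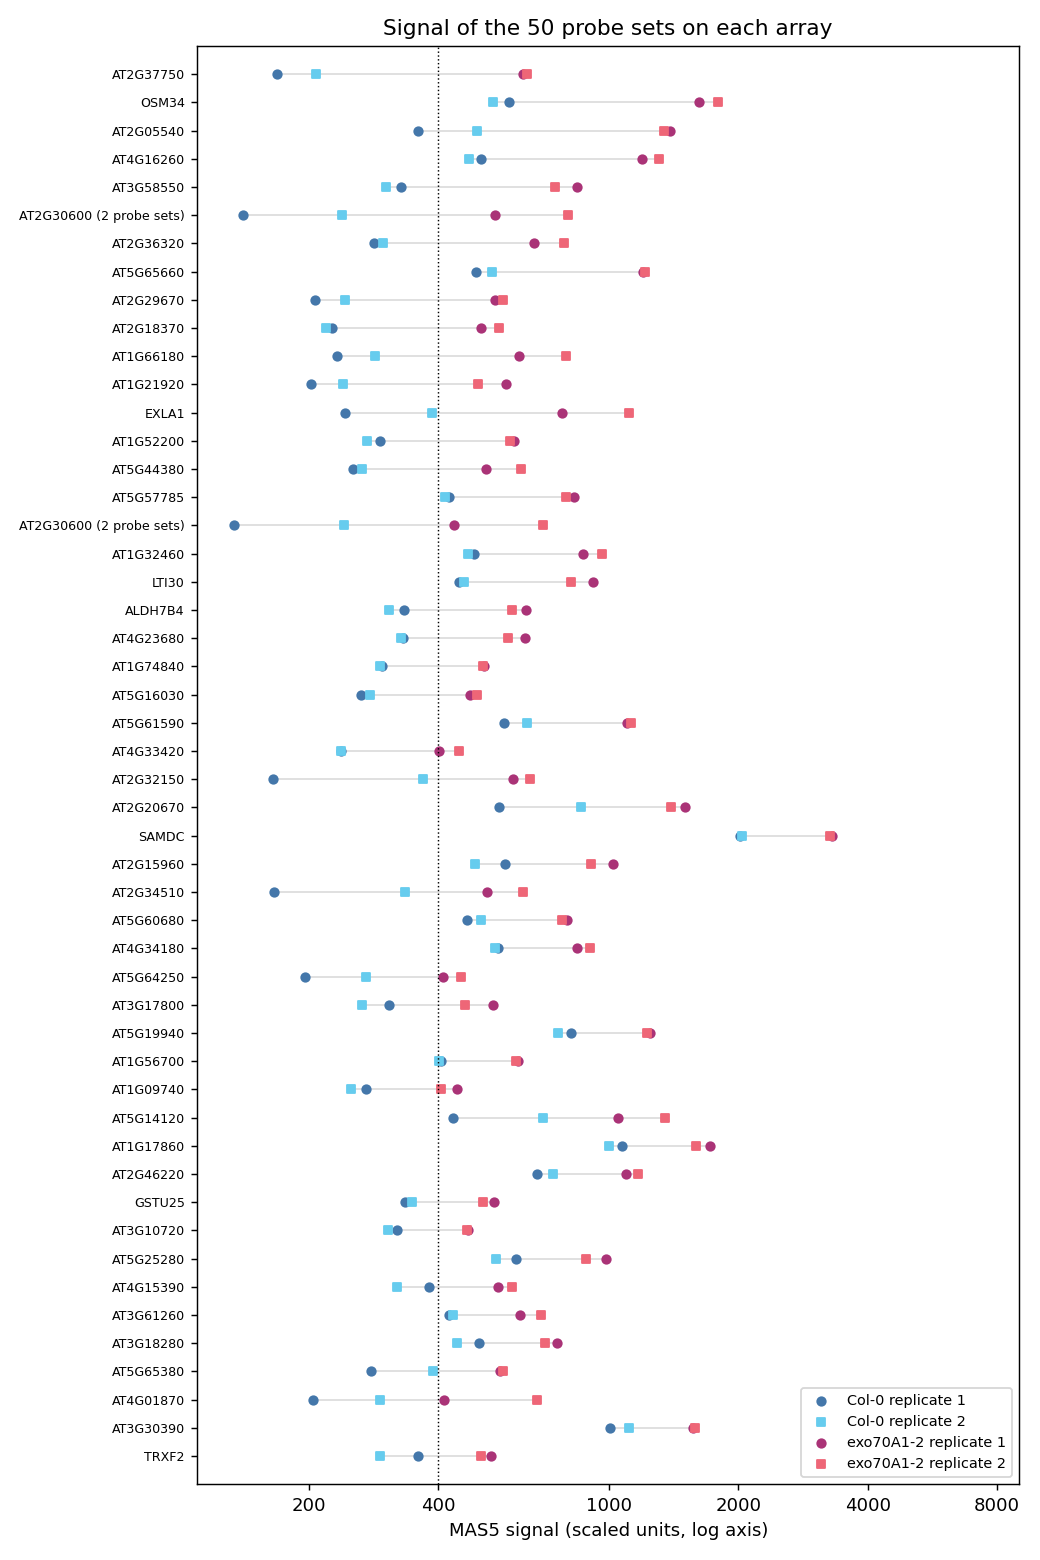
Signal of each of the 50 probe sets (rows, ordered by the ratio of the lower exo70A1-2 to the higher Col-0 signal) on the 4 arrays, on a log axis in scaled MAS5 units, with the limit of 400 as a dotted line. By the rule the exo70A1-2 points lie to the right of the Col-0 points in every row, from AT2G37750 at the top, with a ratio of 3.03, to TRXF2 at the bottom, with 1.4.

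The members are grouped below by role. Roles and families come from general knowledge of the genes and not from the files, the groups were drawn up after values were seen, and the share of such families among all genes was not determined. Protein families of the wall and the extracellular space held 11 of the 49 genes, with a median log2 fold change of 1.28 and ratios of means from 1.49 to 3.21. Values are given below in the order replicate 1, replicate 2. OSM34 (AT4G11650) encodes an osmotin, a defence protein of the thaumatin-like family that responds to salt and drought. It read 585 and 537 in Col-0 and 1619 and 1796 in exo70A1-2, so its mean was 3.04 times as high in the mutant. AT4G16260 encodes a glycosyl hydrolase of the beta-glucanase family that cuts callose-type glucans, and it read 502 and 472 in Col-0 and 1194 and 1304 in exo70A1-2. In both genes the replicates lay close together beside the distance between the genotypes.

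AT2G05540, of a glycine-rich protein family, read 358 and 492 in Col-0 and 1383 and 1344 in exo70A1-2. Its Col-0 arrays differed from each other, and both mutant arrays still lay far above the higher of them. AT5G65660, of the hydroxyproline-rich glycoprotein family, read 489 and 533 in Col-0 and 1197 and 1213 in exo70A1-2. The mutant arrays were near each other and more than 2 times as bright as either Col-0 array.

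EXLA1 (AT3G45970) encodes an expansin-like protein, a relative of the expansins that loosen walls. It read 242 and 387 in Col-0 and 777 and 1115 in exo70A1-2, with replicate 2 the brighter array in both genotypes. Values of the other expansin-like genes tested were smaller. EXLA2 had a log2 fold change of 0.57 and EXLB1 of -0.29, against 1.60 for EXLA1, and EXLA2 too was brighter on replicate 2 in both genotypes, at 35.6 and 53.3 in Col-0 and 52.6 and 79.2 in exo70A1-2.

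Among hydrolases and oxidases of this group, AT1G66180, an aspartyl protease, read 232 and 286 in Col-0 and 618 and 792 in exo70A1-2. AT5G44380, of the berberine bridge enzyme family of flavin oxidases, read 253 and 266 in Col-0 and 517 and 623 in exo70A1-2. AT1G17860 encodes a Kunitz-type protease inhibitor, and it read 1069.7 and 997 in Col-0 and 1716 and 1592 in exo70A1-2. In all 3 the genotypes were set apart by more than the replicates were. The remaining genes of the group were AT4G33420, a class III peroxidase, with a log2 fold change of 0.84, AT3G10720, a pectin methylesterase, with 0.58, and AT2G34510, a wall protein family of unknown function, with 1.28.

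The 3 genes of the lipid transfer protein-like family, small secreted proteins that bind lipids, had log2 fold changes of 1.34, 1.25 and 0.64. AT3G58550 read 327 and 302 in Col-0 and 841 and 749.8 in exo70A1-2. AT2G18370 read 226 and 219.6 in Col-0 and 504 and 555 in exo70A1-2. Both were more than 2 times as bright on the dimmer mutant array as on the brighter Col-0 array. AT3G18280 lay near the edge of the rule, at 497 and 443 in Col-0 and 755 and 710.1 in exo70A1-2.

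Genes for membrane proteins numbered 5, with a median log2 fold change of 0.77. AT1G52200, of the PLAC8 family of small cysteine-rich membrane proteins, read 292 and 272 in Col-0 and 600.2 and 587 in exo70A1-2, the largest rule ratio of the 5 at 2.01. AT5G14120, a transporter-like protein of the major facilitator superfamily, read 434 and 702 in Col-0 and 1048 and 1346 in exo70A1-2. Here the Col-0 arrays were far apart, and the mean ratio of 2.11 compares with a ratio of 1.49 between the nearest arrays. AT3G30390, an amino acid transporter-like gene, read 1007 and 1112 in Col-0 and 1568 and 1586 in exo70A1-2. AT5G65380, of the MATE family of efflux carriers, read 279 and 389 in Col-0 and 556 and 567 in exo70A1-2. Both of these had ratios only just above the limit. The remaining gene, AT3G61260, encodes a remorin, a protein of plasma membrane microdomains, and had a log2 fold change of 0.62.

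Genes of stress protection and detoxification numbered 6, with a median log2 fold change of 0.91. AT2G36320 encodes a zinc finger protein of the A20/AN1 type, a family known from stress responses, and read 283 and 297 in Col-0 and 669 and 787 in exo70A1-2. ALDH7B4 (AT1G54100), an aldehyde dehydrogenase that removes reactive aldehydes and is known to respond to drought and salt, read 334 and 308 in Col-0 and 639 and 593 in exo70A1-2. The dehydrin gene LTI30 (AT3G50970) read 448 and 459 in Col-0 and 915 and 817 in exo70A1-2. In each of these 3 the replicates lay far closer to each other than the genotypes did. The other 3 were AT4G23680, of the major latex protein family, with a log2 fold change of 0.89, the universal stress protein gene AT1G09740 with 0.70, and the glutathione transferase gene GSTU25 with 0.62.

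For 2 of these genes enough relatives carried a name to set them beside their families, which were drawn up after the values were seen. Of 8 aldehyde dehydrogenase genes tested, the 7 other than ALDH7B4 had log2 fold changes between -0.64 for ALDH3F1 and 0.35 for ALDH6B2, against 0.94 for ALDH7B4. ALDH3F1 read 259 and 216 in Col-0 and 150.2 and 154 in exo70A1-2, so it fell (limma, adjusted p = 0.0166). Of 8 tau-class glutathione transferase genes, the 7 other than GSTU25 had log2 fold changes between -0.60 for GSTU20 and 0.38 for GSTU22. Without exo70A1-2 replicate 2 GSTU20 stood at -0.27, and without exo70A1-2 replicate 1 at -0.93. GSTU26, which has the next locus number to GSTU25, stood at -0.00. Apart from ALDH3F1, the relatives of ALDH7B4 and GSTU25 did not pass in this fit. Differences from one relative to another were not tested.

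Regulatory proteins were encoded by 3 genes. AT2G30600, which encodes a BTB/POZ domain protein, was measured by 2 probe sets, and they gave much the same picture. The brighter read 141 and 239 in Col-0 and 542 and 802 in exo70A1-2, and the other 134 and 241 in Col-0 and 436 and 703 in exo70A1-2. The log2 fold changes were 1.85, the highest of the 50, and 1.62. Replicate 2 was the brighter array in both genotypes on both probe sets. AT5G61590 encodes DEWAX, an ERF transcription factor known to lower wax synthesis in the dark, and read 569 and 644 in Col-0 and 1103 and 1127 in exo70A1-2. AT1G74840, a MYB-related transcription factor, had the closest replicates of the 50 on the log2 scale, with means of 294 ± 2.35 in Col-0 and 511 ± 1.90 in exo70A1-2 (SD, n = 2) and a log2 fold change of 0.80.

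**Figure D2:**
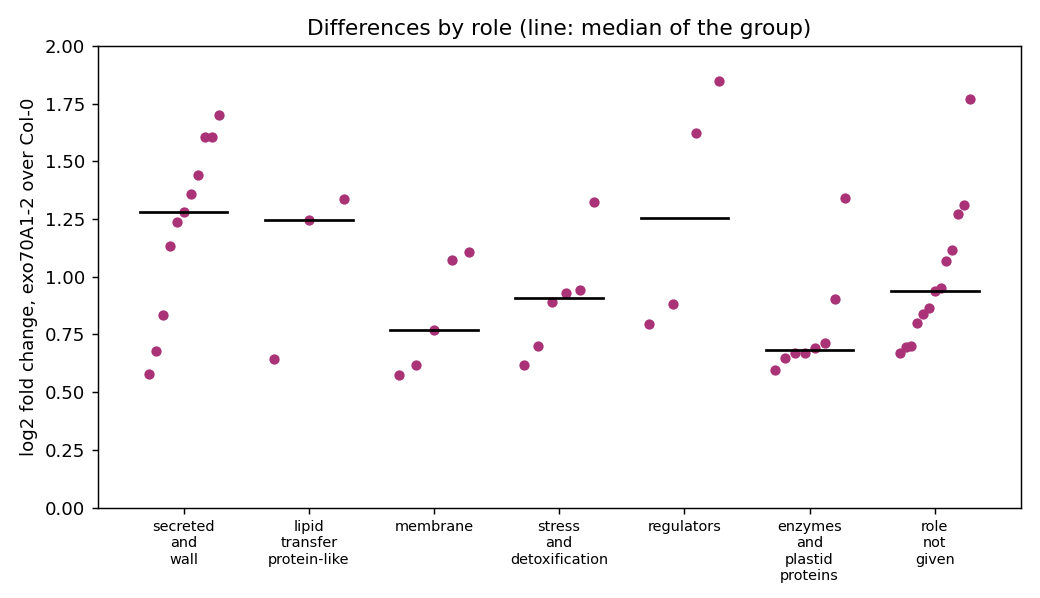
Log2 fold change, exo70A1-2 over Col-0, of each of the 50 probe sets (points) in groups by role, with the median of each group as a line. The wall and secreted group has its median at 1.28 and the enzymes and plastid proteins theirs at 0.68; the regulators hold 2 probe sets of AT2G30600, and the groups were drawn up after the values were seen.

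Enzymes of metabolism and proteins of the plastid numbered 8, with a median log2 fold change of 0.68. SAMDC (AT3G02470) encodes S-adenosylmethionine decarboxylase, an enzyme of polyamine synthesis. It read 2019 and 2041 in Col-0 and 3295 and 3260.3 in exo70A1-2, so its replicates lay within a narrow band and the mutant mean was 1.61 times the Col-0 mean. AT5G19940, of the fibrillin family of plastid lipid-associated proteins, read 817 and 759 in Col-0 and 1245 and 1225 in exo70A1-2. TRXF2 (AT5G16400), an f-type thioredoxin that activates enzymes of carbon fixation in the light, read 359 and 293 in Col-0 and 529.6 and 504 in exo70A1-2 and had the lowest rule ratio of the 50.

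The other 5 enzymes had log2 fold changes between 0.60 and 1.34. They were AT1G56700, a pyroglutamyl peptidase-like protein, at 0.60, CYCLASE1 (AT4G34180) at 0.67, AT4G15390, an acyltransferase of the BAHD family, at 0.72, AT5G64250, an aldolase-type barrel protein, at 0.91, and AT2G32150, a hydrolase of the haloacid dehalogenase family, at 1.34. AT2G32150 had the widest ratio between Col-0 arrays of the 50, at 165 and 368, while its mutant arrays read 597 and 654.

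The remaining 13 genes are given without a role. AT2G37750 had the highest ratio between nearest arrays, 3.03, at 168 and 207 in Col-0 and 629 and 644 in exo70A1-2. AT2G29670 read 206 and 242 in Col-0 and 542 and 567 in exo70A1-2, and AT1G21920 read 202 and 239.8 in Col-0 and 574 and 495 in exo70A1-2. These 3 genes were more than 2 times as bright on each mutant array as on either Col-0 array. AT5G57785 read 424 and 416 in Col-0 and 828 and 794 in exo70A1-2, AT1G32460 read 485 and 469.8 in Col-0 and 871 and 964 in exo70A1-2, and AT2G46220 read 679.9 and 740.2 in Col-0 and 1094 and 1165 in exo70A1-2. AT2G20670 read 554 and 859 in Col-0 and 1499.6 and 1393 in exo70A1-2. In the last of these the Col-0 arrays differed by more than the mutant arrays did.

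AT4G01870 showed wide spread in both genotypes, at 205 and 292 in Col-0 and 412 and 679.9 in exo70A1-2, and its gap of 120.1 between the genotypes was narrower than the gap of 268 between its mutant arrays. Of the others, AT2G15960, AT5G16030, AT3G17800, AT5G60680 and AT5G25280 had log2 fold changes of 0.87, 0.84, 0.80, 0.70 and 0.70. Just outside the rule on the side of the ratio lay AT4G28240, with a ratio of 1.39 and signals of 321 and 324 in Col-0 and 451 and 482 in exo70A1-2. AT3G15450, also at 1.39, read 1491 and 2163 in Col-0 and 3003 and 3312 in exo70A1-2. Just inside it were TRXF2, AT3G30390, AT4G01870 and AT5G65380, with ratios of 1.4, 1.41, 1.41 and 1.43. On the side of the signal, AT1G80180 missed the limit with 396 on its dimmer mutant array.

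Replicate arrays stood apart for some of the members. The values below come from the same 4 signals that the rule used, so they are a description that is not independent of the choice of members. On Col-0 replicate 2, 11 of the 50 probe sets were at least 1.3 times as bright as on Col-0 replicate 1, or 22.0%, against 27 of the other 608 bright probe sets, or 4.44%. In the opposite direction 0 of the 50 differed by that much, against 19 of all 658 bright probe sets, so nothing is read from the 0. The 11 were both probe sets of AT2G30600, EXLA1, AT2G05540, AT2G20670, AT2G32150, AT2G34510, AT4G01870, AT5G14120, AT5G64250 and AT5G65380. Of these, 9 were also brighter on exo70A1-2 replicate 2 than on replicate 1, the exceptions being AT2G05540 and AT2G20670. Of all 658 bright probe sets, whatever their Col-0 signals, 40.3% were brighter on exo70A1-2 replicate 2. The share among the 27 others picked in the same way as the 11 was not determined, so nothing is read from the 9. Across the 50 probe sets the log2 difference between replicates 2 and 1 in Col-0 correlated with that in exo70A1-2 at 0.60, against 0.48 across the 608 others and 0.28 across all tested probe sets. Without the 11 it was 0.36. These values describe probe sets that share the same 4 arrays, no label tells what a shared replicate number stands for, and the part of the replicate difference in the genotype difference was not tested.

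**Figure D3:**
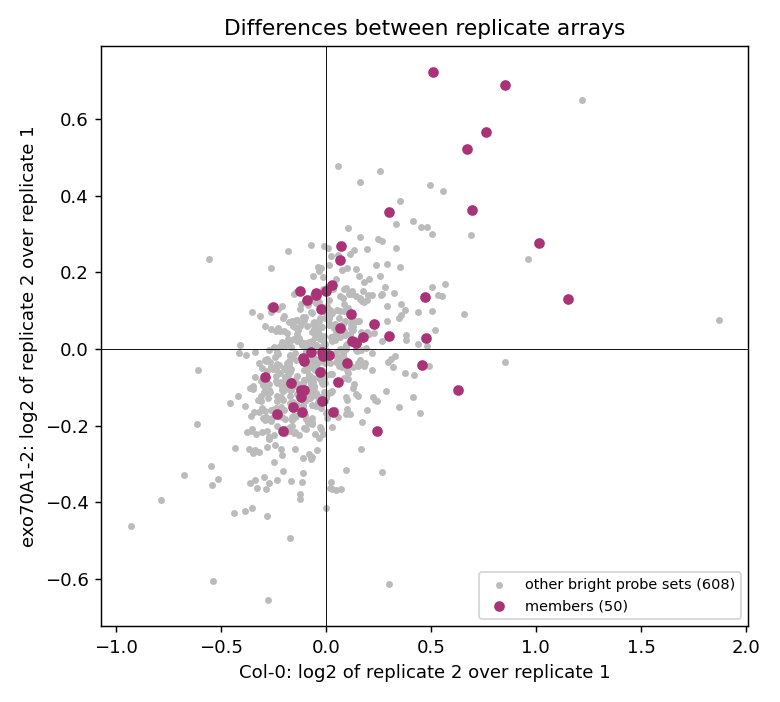
Log2 of the replicate 2 signal over the replicate 1 signal in Col-0 (x axis) and in exo70A1-2 (y axis) for the 50 probe sets (dark points) and the 608 other single-gene probe sets with a signal of at least 400 on both exo70A1-2 arrays (grey points). The 50 correlate at 0.60, with EXLA1, AT4G01870 and the 2 probe sets of AT2G30600 at the upper right.

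For 2 of the 49 genes, leaving out a Col-0 array moved the log2 fold change by more than 1.5 times. AT2G32150 stood at 1.34 with all arrays, at 0.76 without Col-0 replicate 1 and at 1.92 without Col-0 replicate 2. AT2G34510, which read 166 and 335 in Col-0 and 519.7 and 629 in exo70A1-2, stood at 1.28, at 0.77 without Col-0 replicate 1 and at 1.79 without Col-0 replicate 2. Both stayed above 0.7 on each side, and their direction is set by the rule.

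The 49 genes were spread over all 5 chromosomes by their locus numbers, with 10, 11, 9, 7 and 12 genes on chromosomes 1 to 5. In the RefSeq gene order of assembly TAIR10.1, 0 pairs of member genes lay within 5 protein-coding genes of each other. What other sets of as many genes would give was not determined, so nothing further is read from these counts.

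Genes of processes in which strongly expressed seedling genes take part were counted beside these members, from 20 lists. Of their 198 entries 24 had a probe set of a single gene and 21 genes were tested. With 0 tested genes, 9 lists gave no value, among them aquaporins and chaperones, which had entries but no probe set of a single gene, and ribosomal proteins, for which the symbol search found 0 entries. Of the 21 genes, 6 rose and 0 fell (limma, adjusted p under 0.05), where 8.54% of all probe sets tested rose and 7.50% fell. The median log2 fold change of the 21 was 0.11, against -0.00 for all tested probe sets. LTI30 and GSTU25 are among the 50 and were counted here, and without them 4 of 19 rose, with a median of 0.10. ICL is among both the 6 and the 4, although it was bright enough to be tested only through its exo70A1-2 signals.

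Of the 4 cold and dehydration genes tested, COR15A rose besides LTI30, at 111 and 81.5 in Col-0 and 252 and 162 in exo70A1-2 (limma, adjusted p = 0.0151). COR47, a dehydrin gene as LTI30 is, had a log2 fold change of -0.07, or 0.01 after quantile normalization, and COR15B one of -0.52, which ran from -0.85 without exo70A1-2 replicate 1 to -0.19 without exo70A1-2 replicate 2 and was -0.31 without Col-0 replicate 1. The chlorophyll-binding protein gene LHCB4.2 of photosystem II read 2548 and 1598 in Col-0 and 3957 and 3148 in exo70A1-2 and rose (limma, adjusted p = 0.0289). That call ended without exo70A1-2 replicate 1 (adjusted p = 0.0544), with no filter on dim probe sets (0.0856) and with no intensity trend (0.0832), and without Col-0 replicate 2 its log2 fold change went from 0.81 to 0.47. The closely related LHCB4.1 had a log2 fold change of -0.09. RCA stood at -0.16, or -0.25 without Col-0 replicate 2 and -0.07 without Col-0 replicate 1.

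AT4G01610, which encodes a cathepsin B-like protease, read 619.5 and 594 in Col-0 and 835 and 874 in exo70A1-2 and rose (limma, adjusted p = 0.0151). The call was lost without exo70A1-2 replicate 1 (adjusted p = 0.0602), without exo70A1-2 replicate 2 (0.138) and with no intensity trend (0.0622). The vacuolar protease genes GAMMA-VPE and APA1 had log2 fold changes of 0.05 and 0.10. ICL encodes isocitrate lyase of the glyoxylate cycle, which turns seed oil into sugar. It read 13.7 and 11.8 in Col-0, below a dim limit of 21.9, and 44.3 and 59.5 in exo70A1-2. With Col-0 set at that limit, the mutant mean on the log2 scale was 2.35-fold higher. In the fit on the signals as read ICL rose, with an uncertain log2 fold change of 2.02 (limma, adjusted p = 0.00132). Only its exo70A1-2 signals made its mean bright enough to be tested, so nothing is read from this call. The fatty acid breakdown gene AIM1 stood at 0.11.

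The other listed genes did not pass in this fit. With a replicate block EIN3, GSTU20 and COR15B passed as well, EIN3 higher and the others lower in exo70A1-2 (limma, adjusted p = 0.000953, 4.86e-05 and 0.00154). That fit treats same-numbered arrays as pairs, which no label gives. Its smaller p-values are therefore not read as stronger than those without the block. Without the block, the ethylene response regulator gene EIN3 had a log2 fold change of 0.48 (limma, adjusted p = 0.0577), and GSTU20 one of -0.60 (adjusted p = 0.0735). The block was not the only setting that moved them. Without exo70A1-2 replicate 2 EIN3 stood at 0.33 and GSTU20 at -0.27, and without exo70A1-2 replicate 1 at 0.63 and -0.93. The clock gene GI stood at 0.24, the ubiquitin-conjugating enzyme gene UBC32 at 0.16 and the metallothionein gene MT1C at 0.13. The glycolysis genes GAPC2 and TPI stood at 0.01 and -0.11, or 0.08 and 0.01 after quantile normalization, and the flavonoid gene DFR at 0.08.

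**Figure D4:**
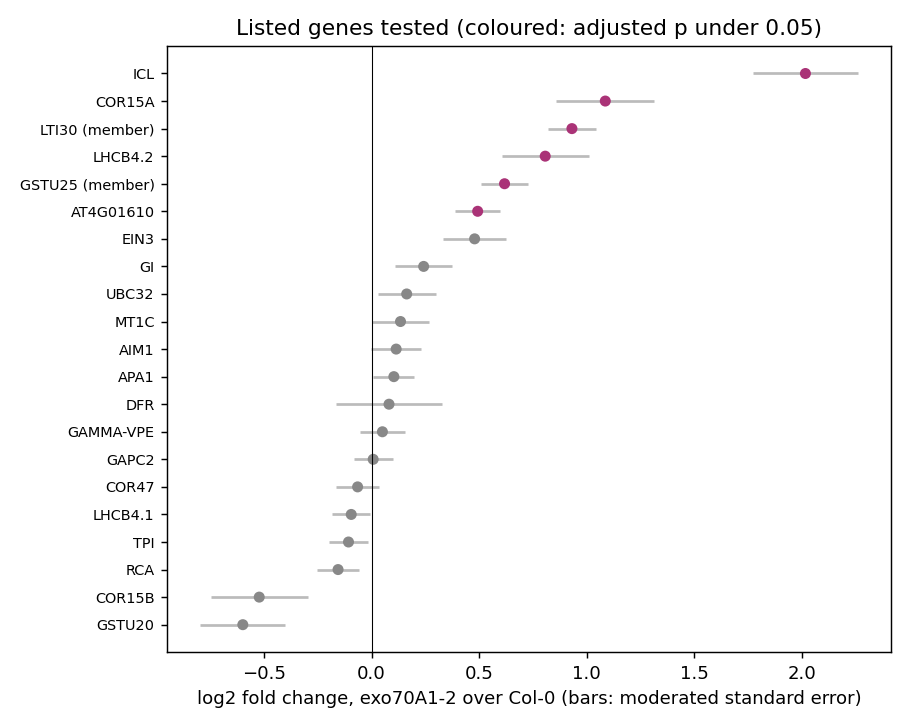
Log2 fold change, exo70A1-2 over Col-0, of the 21 listed genes tested (points), with moderated standard errors as bars and genes with an adjusted p under 0.05 in colour. The 6 coloured genes lie between AT4G01610 at 0.49 and ICL at 2.02, a value that is uncertain because both Col-0 arrays were dim.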

How the data were processed

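The deposited values are linear intensities, 1 for each probe set on each array. Judging by the values, the authors had scaled each array to a mean of 100 after leaving out the top and bottom 2%. MAS5 and GCOS, with no version, are the tools in the submitters' processing notes. MAS5 makes low signals noisy; all members are bright. The number of arrays limits the precision.

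Control probe sets were left out. On log2 of the signal, limma 3.58.1 in R 4.3.3 compared the genotypes (lmFit, eBayes with an intensity trend, two-sided, Benjamini-Hochberg adjustment). It covered the 13648 of 22746 probe sets whose mean log2 signal reached the 40th percentile. A run on data simulated from the fit's own model, with no shared replicate effect, checked the code and not the model. Names came from the array's probe annotation and RefSeq (TAIR10.1), with 13436 of 13513 single-gene probe sets matched. A listed gene was taken by its brightest probe set.

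The members, roles and lists were chosen with earlier results of these data known. Each array's signal is given for the 20 members with the highest ratio, the 12 brightest and the 4 just inside the ratio limit; of listed genes, those that changed come first. Some other members, listed genes and relatives are given as examples chosen after their values were seen. Figures used matplotlib 3.10.9.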

Additional observations from a re-analysis of the deposited data

How the results depend on the processing

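Leaving out each array in turn gave 62 to 83 members with a median log2 fold change of 0.80 to 0.85 (50 and 0.92 with all arrays), the most, 83 and 81, without Col-0 replicate 2 and without exo70A1-2 replicate 1; fewer arrays make the rule easier to meet, and all 50 were kept each time. Over the table it gave 577 to 1696 probe sets higher and 396 to 1347 lower (1165 and 1024), the fewest without exo70A1-2 replicate 2, and 5 to 9 listed genes that changed (6). A fit with a replicate block called 2168 higher and 2098 lower, and 9 listed genes changed, with EIN3, GSTU20 and COR15B added; same-numbered arrays deviated together at a correlation of 0.28, and since only 2 arrays stand for a genotype and no label ties them, the numbers were not taken as pairs. Without the intensity trend 679 were lower, and at a threshold of 0.10 1599 were. By construction, a signal of at least 600 left 27 members, a ratio of at least 2 left 14 (median 1.35), a ratio of at least 1.3 gave a median of 0.80, and genotype means gave 93 (median 0.70). Setting array medians equal kept 45 members, losing AT4G33420, AT4G15390, AT3G18280, AT3G30390 and TRXF2, and quantile normalization kept all 50 and added 4. The cause was not tested otherwise. Of 552 gene values compared over the alternatives, 0 called ones reversed; for members the rule makes this so. Of listed genes that were not called, DFR, MT1C and GAPC2 changed sign when an array was left out.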
